A study of Mus musculus with 6 samples.

Results

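Adipokines are hormones, enzymes and carrier proteins that fat cells release into the blood or into the tissue around them. The expression of 9 adipokine genes (*Adipoq*, *Lep*, *Retn*, *Cfd*, *Rbp4*, *Rarres2*, *Nampt*, *Nrg4* and *Apln*) was followed in inguinal white adipose tissue (iWAT). They were picked by symbol as genes for hormones secreted by adipocytes, from the 35999 gene symbols with estimated counts. No rule on measured values was used, but earlier results of these data were known. All 9 were found, and all 9 belonged to the 16069 genes left after the low-count filter of edgeR. RNA was taken from the whole iWAT of 3 Cebpa_fl/fl and 3 Cebpa_ASKO mice, all of them 10-week-old females on the C57BL6/J background in a random fed state. Cebpa_fl/fl mice carry floxed alleles of *Cebpa*, the gene for the transcription factor C/EBPα, and no Cre (AdipoQ-Cre-), and Cebpa_ASKO mice carry the same floxed alleles with the AdipoQ-Cre transgene (AdipoQ-Cre+). The study bred them as littermates, and its comparison asks how iWAT functions without adipocyte *Cebpa*. For each mouse both depots went into the same RNA sample without their lymph nodes, poly-A RNA was made into 1 library, and all 6 libraries are labelled batch 1. Total estimated counts were 46237121, 46601320 and 49477671 in Cebpa_fl/fl 1, 2 and 3 and 33141769, 37957065 and 42243013 in Cebpa_ASKO 1, 2 and 3.

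The model has limits that bear on these genes. The promoter that drives Cre is that of *Adipoq*, itself an adipokine gene, and it becomes active late in adipocyte differentiation. Cells that do not express adiponectin, such as immune and vascular cells, would therefore keep *Cebpa*. The paper describes committed preadipocytes that express *Adipoq*, so some progenitors could lose *Cebpa* too. Its loss per cell type was not measured here. The transgene is also active in brown fat. In RNA of a whole tissue, fewer adipocytes and less RNA per adipocyte cannot be told apart.

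Adiponectin, leptin and resistin are hormones by which fat acts on distant organs. Adiponectin binds receptors in liver and muscle and goes along with insulin sensitivity, leptin reports fat stores to the brain and lowers food intake, and resistin, made by adipocytes in mice, opposes insulin action. Other secreted products are an enzyme of the complement cascade (adipsin), a carrier of vitamin A, an enzyme of NAD synthesis, a chemoattractant, and growth and vascular factors.

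*Cebpa*, the targeted gene, checked the genotypes. Its expression was 448, 465 and 498 CPM (counts-per-million of estimated counts, scaled between libraries by the TMM method) in Cebpa_fl/fl and 37.7, 45.8 and 37.2 CPM in Cebpa_ASKO, without overlap. Markers of adipocytes checked the tissue: all 13 were present in all libraries, and their summed level was 24160, 25215 and 24936 CPM in Cebpa_fl/fl and 16146, 13536 and 12045 CPM in Cebpa_ASKO. The most abundant of them was *Fabp4*. Of the 13, 6 were called lower, which here means a p below 0.05 in the edgeR quasi-likelihood F-test after Benjamini-Hochberg adjustment over all genes tested (*Plin1*, *Plin4*, *Cidec*, *Lpl*, *Acsl1* and *Pparg*, the last at 0.067 on the log2 scale, or -0.81 relative to the median of all genes, when libraries were scaled to these 13 markers). Between 3 and 6 were called with each library left out in turn, the fewest without Cebpa_ASKO 2. Without overlap 10 of the 13 were lower, the same number had an unadjusted p below 0.05, and DESeq2 called 10 lower and 0 higher. The sum in Cebpa_ASKO was 56.2% of that in Cebpa_fl/fl, but the markers differed widely: *Cidec* was at 17.8% of control, *Slc2a4* at 99.9% and *Gpd1* at 176%, and *Slc2a4* and *Gpd1* were not called and overlapped.

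Some libraries stood apart in markers of other cells. Cebpa_fl/fl 1 had 188 CPM over 5 lymphocyte markers, of which *Cd79a* was the most abundant. The sums were 5.51 and 3.98 CPM in Cebpa_fl/fl 2 and 3 and 2.28, 2.50 and 4.60 CPM in Cebpa_ASKO. Of the 4 tested, the edgeR F-test called 0, and 4 were lower at an unadjusted p below 0.05. DESeq2 called *Cd3d* and *Cd3e*, which were lower in Cebpa_ASKO without overlap. *Ucp1*, a marker of brown and beige adipocytes, was 733 CPM in Cebpa_fl/fl 1 against 19.4 and 112 CPM in the other control libraries. The 5 brown and beige markers summed to 1241, 139 and 362 CPM in Cebpa_fl/fl and 1294, 991 and 669 CPM in Cebpa_ASKO, with *Cox8b* the most abundant in both genotypes by TPM (transcripts-per-million, each gene's share of all transcripts after division by length). Among them *Cidea* was higher (log2 fold change 2.00) and *Elovl3* lower (-3.87) in Cebpa_ASKO without overlap. Control libraries spread widely for both. *Cidea* had 248, 33.8 and 119 CPM in Cebpa_fl/fl and 732, 524 and 343 CPM in Cebpa_ASKO. *Elovl3* had 20.7, 0.911 and 4.30 CPM in Cebpa_fl/fl and 0.444, 0.842 and 0.471 CPM in Cebpa_ASKO. Of the 5, 0 were called by the edgeR F-test, these 2 genes had an unadjusted p below 0.05, and DESeq2 called *Elovl3*. Cebpa_fl/fl 2, the lowest in those markers, was the highest in 7 progenitor markers, which summed to 3464, 6192 and 3161 CPM in Cebpa_fl/fl and 4883, 4737 and 5447 CPM in Cebpa_ASKO, led by *Dcn*. The same library was the highest in 5 macrophage markers, led by *Lyz2*, with 1005, 1733 and 666 CPM in Cebpa_fl/fl and 1081, 1192 and 1311 CPM in Cebpa_ASKO. Skeletal muscle markers moved with genotype: 5 of 5 were called higher in Cebpa_ASKO, and they summed to 406, 521 and 375 CPM in Cebpa_fl/fl and 2132, 3851 and 1388 CPM in Cebpa_ASKO, with *Tnnt3* the most abundant by TPM in control tissue and *Ckm* in Cebpa_ASKO. With each library left out in turn, between 1 and 5 of these 5 were called, the fewest, *Myh4* alone, without Cebpa_fl/fl 1, without Cebpa_fl/fl 3 and without Cebpa_ASKO 1, while the log2 fold changes stayed between 1.72 and 2.55 for *Acta1*, 1.88 and 2.69 for *Ckm*, 1.61 and 2.38 for *Tnnt3*, 1.39 and 2.20 for *Mylpf* and 2.46 and 3.19 for *Myh4*.

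Markers of mammary epithelium, endothelium, smooth muscle and pericytes were read in the same way. In 5 mammary epithelium markers the sums were 794, 518 and 1140 CPM in Cebpa_fl/fl and 1631, 1450 and 1619 CPM in Cebpa_ASKO, without overlap. *Krt18* was the most abundant in control tissue, and *Krt8*, *Krt18* and *Csn3* were higher in Cebpa_ASKO without overlap. The edgeR F-test called 0 of the 5, although 4 had an unadjusted p below 0.05 and DESeq2 called 2. The 4 endothelial markers summed to 267, 299 and 318 CPM in Cebpa_fl/fl and 205, 199 and 262 CPM in Cebpa_ASKO, without overlap, with *Pecam1* the most abundant. With the edgeR F-test 0 of these 4 were called, 2 were lower at an unadjusted p below 0.05, and DESeq2 called 1 (*Cdh5*). The 4 smooth muscle and pericyte markers summed to 523, 640 and 647 CPM in Cebpa_fl/fl and 729, 797 and 666 CPM in Cebpa_ASKO, led by *Acta2*. Among them *Acta2* and *Myh11* were higher without overlap, 0 were called by the edgeR F-test, 2 were higher at an unadjusted p below 0.05, and DESeq2 called 1 (*Myh11*). None of the markers of these lists was at 0 in all 6 libraries. The part of these cells in the results below was not tested.

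**Figure D1:**
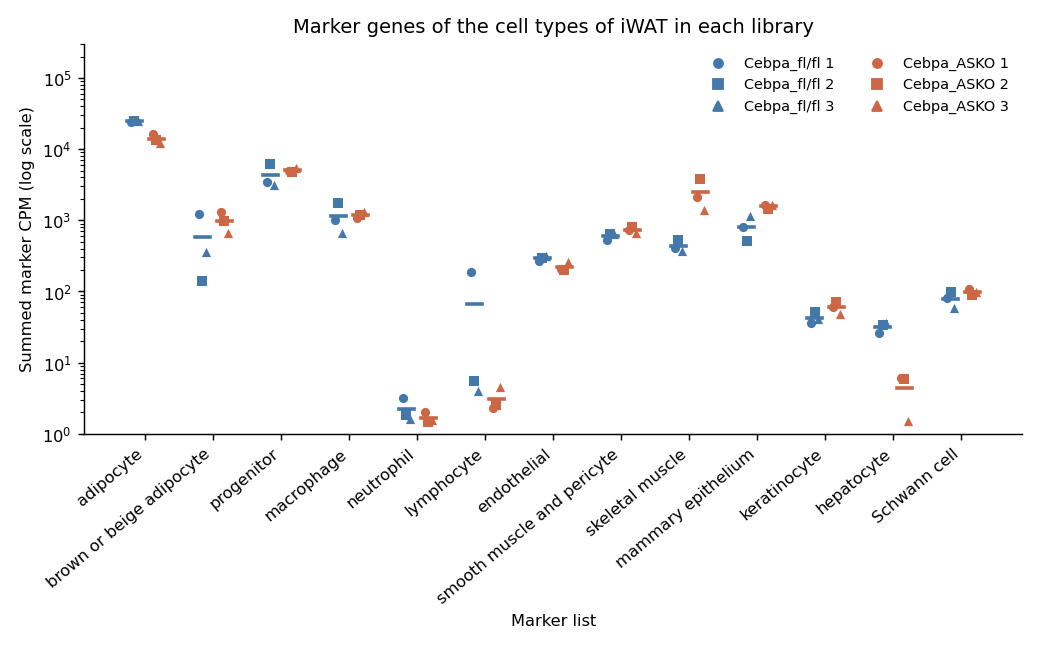
Each point is the summed normalized CPM (log scale) of a list of marker genes in 1 library, and each short line is the mean of the 3 libraries of a genotype. Lymphocyte markers are at 188 CPM in Cebpa_fl/fl 1 and between 2.28 and 5.51 CPM in the other libraries, and skeletal muscle markers are higher in the 3 Cebpa_ASKO libraries.

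Of the 9 adipokine genes, 4 were called lower in Cebpa_ASKO (*Adipoq*, *Retn*, *Cfd* and *Rbp4*) by the edgeR quasi-likelihood F-test, and 0 were called higher. Among all 16069 genes, 3.84% were called lower and 1.39% higher. The genotypes did not overlap for the same 4 genes, and for *Nampt*, which was higher in the 3 Cebpa_ASKO libraries. Of all genes, 13.2% did not overlap and were lower, and 12.9% did not overlap and were higher. DESeq2 called 1137 of 16964 genes lower and 676 higher. No share of all genes at an unadjusted p below 0.05 is given here, so list counts at that level have no background. Before adjustment, *Nampt* was the 1 adipokine gene that was higher with p below 0.05, and DESeq2 called it. The median log2 fold change (Cebpa_ASKO over Cebpa_fl/fl) of the 9 genes was -0.48, against 0.025 over all genes tested, and the values ran from -9.85 to 0.58. Leaving out any library, those that stood apart included, kept the calls of these 4.

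Added up, the 9 genes took 2.44%, 3.68% and 3.25% of all TPM in Cebpa_fl/fl 1, 2 and 3 and 0.336%, 0.336% and 0.537% in Cebpa_ASKO 1, 2 and 3. *Cfd* made up 81.0%, 82.2% and 82.3% of this sum in Cebpa_fl/fl and 61.6%, 62.5% and 81.3% of it in Cebpa_ASKO. *Rarres2*, at 1.18%, 1.66% and 0.872% of the sum in Cebpa_fl/fl, held 21.0%, 19.7% and 8.37% of the much smaller sum in Cebpa_ASKO. Without *Cfd* the sum was 5639 ± 951 TPM in Cebpa_fl/fl and 1184 ± 157 TPM in Cebpa_ASKO (± SD over 3 libraries).

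The order of the genes per length also differed between the genotypes. In Cebpa_fl/fl the mean TPM was highest for *Cfd* (25587 ± 5348), followed by *Adipoq* (2795 ± 620) and *Retn* (1893 ± 326), and these 3 did not overlap. *Rbp4* (397 ± 99.1 TPM) and *Rarres2* (394 ± 187 TPM) came next and overlapped. *Lep* (70.2 ± 31.8 TPM), *Nrg4* (46.6 ± 12.6 TPM) and *Nampt* (41.2 ± 4.73 TPM) followed, where *Nrg4* overlapped both others and *Lep* lay above *Nampt* in all control libraries, and *Apln* was last (1.81 ± 0.249 TPM). In Cebpa_ASKO *Cfd* was still first (2843 ± 1315 TPM), followed by *Rarres2* (605 ± 137 TPM) and *Adipoq* (381 ± 20.5 TPM), without overlap. *Nampt* (56.8 ± 1.78 TPM), *Lep* (52.3 ± 25.2 TPM) and *Rbp4* (51.3 ± 15.1 TPM) lay within their spread of each other, followed by *Nrg4*, which overlapped *Lep* and *Rbp4*. At the bottom *Retn* (2.15 ± 1.63 TPM) overlapped *Apln* (2.01 ± 0.632 TPM).

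**Figure D2:**
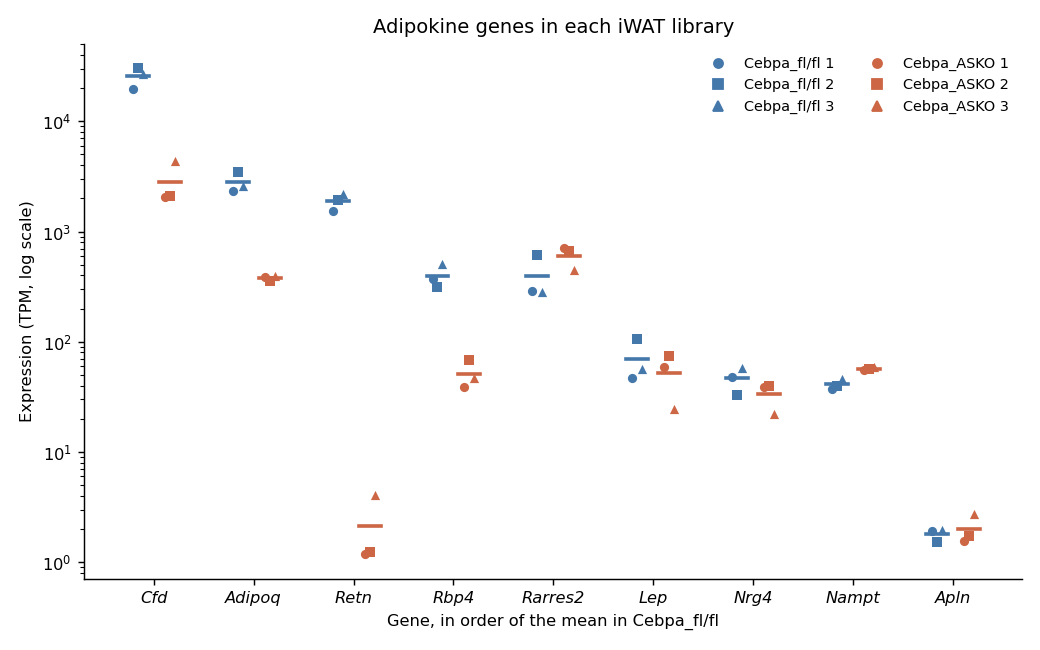
Each point is the TPM (log scale) of an adipokine gene in 1 library, and each short line is the mean of the 3 libraries of a genotype. *Cfd*, *Adipoq*, *Retn* and *Rbp4* are lower in the 3 Cebpa_ASKO libraries, and *Retn* goes from a mean of 1893 TPM to 2.15 TPM.

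*Adipoq*, which encodes adiponectin and is found at 23146536 to 23158028 on the plus strand of chromosome 16 (GRCm38), had 2301, 3106 and 2399 CPM in Cebpa_fl/fl and 384, 310 and 334 CPM in Cebpa_ASKO. The lowest control library (2301 CPM) lay far above the highest Cebpa_ASKO library (384 CPM). The level in Cebpa_ASKO was 13.2% of control, with a log2 fold change of -2.93 (95% interval -3.39 to -2.46, edgeR quasi-likelihood F-test, Benjamini-Hochberg adjusted p = 0.000783). By TPM it ranked between 25 and 35 among all genes in the control libraries and between 298 and 331 in the Cebpa_ASKO libraries. Nearly all its estimated counts were in the transcript Adipoq-201, with means of 99.8% in both genotypes.

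*Lep*, the leptin gene on chromosome 6 from 29060220 to 29073877 (plus strand), had 129, 258 and 144 CPM in Cebpa_fl/fl and 161, 177 and 57.2 CPM in Cebpa_ASKO. The genotypes overlapped, with Cebpa_fl/fl 2 the highest library and Cebpa_ASKO 3 the lowest. The log2 fold change was -0.43 (95% interval -1.51 to 0.66, edgeR quasi-likelihood F-test, Benjamini-Hochberg adjusted p = 0.687), so that a fall of more than 2-fold and a rise were both within the interval. Without Cebpa_fl/fl 2, the library high in progenitor and macrophage markers, it was -0.065, and without Cebpa_ASKO 3 it was -0.085. Without Cebpa_ASKO 2 it was -0.72, without Cebpa_fl/fl 1 -0.61 and without Cebpa_ASKO 1 -0.60. With libraries scaled to the adipocyte markers it was 0.38, or -0.50 relative to the median of all genes. *Lep* was not called in any of 16 settings (other tools, scalings and filters, a replicate block and each library left out), where the adjusted p ran from 0.537 to 0.955.

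*Retn*, the resistin gene on chromosome 8 from 3655770 to 3660110 (plus strand), was the most reduced of the 9. Its estimated counts were 43450, 51097 and 60620 in Cebpa_fl/fl and 23, 26 and 95 in Cebpa_ASKO. In normalized CPM these were 968, 1083 and 1285 against 0.729, 0.664 and 2.13, and Cebpa_ASKO 3 was the highest of its genotype. The mean was 946-fold lower in Cebpa_ASKO, or 0.106% of control, and the log2 fold change was -9.85 (95% interval -11.17 to -8.53, edgeR quasi-likelihood F-test, Benjamini-Hochberg adjusted p = 0.000585). Without Cebpa_ASKO 3 the log2 fold change was -10.65. In rank by TPM it went from between 31 and 50 in the control libraries to between 10943 and 13229 in the Cebpa_ASKO libraries. The summed adipocyte markers were at 56.2% of control.

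The paralogs of resistin gave another pattern. *Retnla*, whose product is known from alternatively activated macrophages, had 459, 804 and 331 CPM in Cebpa_fl/fl and 546, 555 and 540 CPM in Cebpa_ASKO. Its log2 fold change was 0.042 (95% interval -0.69 to 0.78, edgeR quasi-likelihood F-test, Benjamini-Hochberg adjusted p = 0.964), and the Cebpa_fl/fl library with the most macrophage marker counts, Cebpa_fl/fl 2, was also its highest. *Retnlg*, a gene of neutrophils, was below 2 CPM in all libraries, and *Retnlb* had counts in Cebpa_fl/fl 2 alone. With the edgeR F-test 0 of the 2 paralogs tested were called, 0 had an unadjusted p below 0.05 and DESeq2 called 0. In the control tissue *Retnla* reached 1520 TPM beside 1893 TPM for *Retn*, and in Cebpa_ASKO 1619 TPM beside 2.15 TPM.

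*Cfd* encodes adipsin (complement factor D), the serine protease that starts the alternative complement pathway, and lies on chromosome 10 from 79890853 to 79892655 (plus strand). It had 12780, 17454 and 16126 CPM in Cebpa_fl/fl and 1332, 1176 and 2398 CPM in Cebpa_ASKO. The genotypes did not overlap, and Cebpa_ASKO 3 was the highest of its genotype here too. The level was 10.6% of control, with a log2 fold change of -3.24 (95% interval -4.14 to -2.34, edgeR quasi-likelihood F-test, Benjamini-Hochberg adjusted p = 0.00527). Without Cebpa_ASKO 3 the log2 fold change was -3.64. *Cfd* was between rank 3 and rank 8 of all genes by TPM in the control libraries, and between rank 16 and rank 37 in the Cebpa_ASKO libraries. Its 2 annotated transcripts, which differ little in length, held 57.6% ± 1.65 and 42.4% ± 1.65 of its counts in Cebpa_fl/fl and 58.7% ± 0.566 and 41.3% ± 0.566 in Cebpa_ASKO (± SD over 3 libraries), with overlap.

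Adipsin acts on factor B bound to C3, and the genes of both were read beside *Cfd*. *C3*, the central component, had 2133, 2900 and 2472 CPM in Cebpa_fl/fl and 932, 1079 and 1408 CPM in Cebpa_ASKO. It was called lower, with a log2 fold change of -1.13 (95% interval -1.66 to -0.61, edgeR quasi-likelihood F-test, Benjamini-Hochberg adjusted p = 0.0353). That call was lost when any library other than Cebpa_ASKO 3 was left out, with log2 fold changes from -1.33 to -1.01 over the 6 fits, and when libraries were scaled by total counts. *Cfb*, the gene for factor B, was 214 ± 67.6 CPM in Cebpa_fl/fl against 93.0 ± 41.0 CPM in Cebpa_ASKO (± SD over 3 libraries) and was not called (same F-test, adjusted p = 0.115), although the genotypes did not overlap and DESeq2 called it. *Cfp* (properdin, which stabilizes the convertase) was not called. *Masp1* had 2.45, 3.18 and 5.06 CPM in Cebpa_fl/fl and 6.28, 6.05 and 5.27 CPM in Cebpa_ASKO, higher without overlap, with a log2 fold change of 0.72 and an unadjusted p of 0.0415, and was called neither by the edgeR F-test nor by DESeq2.

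*Rbp4*, the carrier of retinol in blood, lies on chromosome 19 from 38116629 to 38125281 (minus strand). Its level was 251, 189 and 323 CPM in Cebpa_fl/fl and 26.7, 40.6 and 26.8 CPM in Cebpa_ASKO. The libraries of the 2 genotypes were well apart, and Cebpa_ASKO 2 was the highest of its group. In Cebpa_ASKO 12.3% of the control level remained, with a log2 fold change of -3.02 (95% interval -3.65 to -2.39, edgeR quasi-likelihood F-test, Benjamini-Hochberg adjusted p = 0.00202).

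*Rbp4* is annotated with a downstream and an upstream start, and the shares of its transcripts were read in each genotype. Rbp4-202, whose first base is at position 38124828, held 91.6%, 92.2% and 92.9% of the gene's estimated counts in Cebpa_fl/fl and 85.2%, 82.7% and 87.3% in Cebpa_ASKO. Rbp4-201, which starts upstream at 38125248, held 7.79%, 6.55% and 6.50% in Cebpa_fl/fl and 13.7%, 16.1% and 11.3% in Cebpa_ASKO. The shares of both transcripts did not overlap between the genotypes. Among the 9 adipokine genes, the same held for 2 transcripts of *Lep*, 2 of *Retn* and 1 of *Nrg4*. No such count over all genes is given here. In normalized CPM both were lower in each Cebpa_ASKO library than in any control library: Rbp4-202 had 235 ± 62.7 CPM in Cebpa_fl/fl against 26.5 ± 6.07 CPM in Cebpa_ASKO, and Rbp4-201 had 17.6 ± 4.61 and 4.40 ± 1.86 CPM (± SD over 3 libraries). Thus 11.3% of the control level remained for Rbp4-202 and 24.9% for Rbp4-201. These transcripts share exons, and kallisto divides their common reads by estimation, so the shares carry that uncertainty and no test was run on them. Of the 9 adipokine genes, the other ones with more than 1 transcript and a main share below 90% were *Cfd*, *Rarres2* and *Nrg4*.

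**Figure D3:**
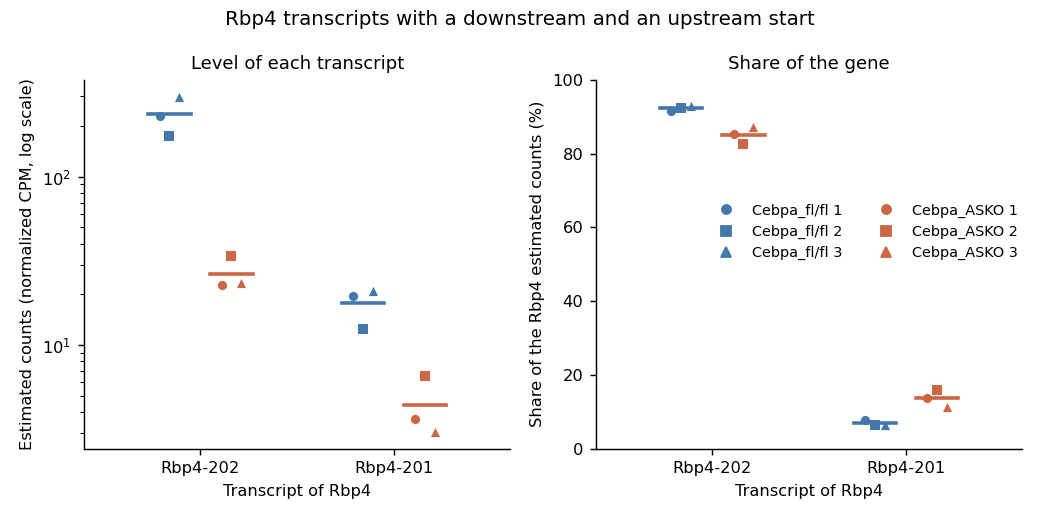
Normalized CPM (left, log scale) and share of the gene's estimated counts in percent (right) of the 2 main *Rbp4* transcripts, with 1 point per library and the mean of each genotype as a short line. Both transcripts are lower in Cebpa_ASKO, and the share of Rbp4-201 is between 6.50% and 7.79% in Cebpa_fl/fl and between 11.3% and 16.1% in Cebpa_ASKO.

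Other genes of retinol handling were given as a list of 10 genes, of which 9 were tested. With the edgeR F-test 0 were called lower and 0 higher, 1 was lower (*Aldh1a1*) and 0 higher at an unadjusted p below 0.05, and DESeq2 called 1 lower and 0 higher. *Aldh1a1*, which makes retinoic acid from retinal, was 91.0 ± 28.6 CPM in Cebpa_fl/fl against 45.3 ± 9.86 CPM in Cebpa_ASKO (± SD over 3 libraries), with a log2 fold change of -1.01 (same F-test, adjusted p = 0.0760) and no overlap. The list's median was -0.036. *Stra6*, a membrane receptor for the retinol carrier, was below 2 CPM in all libraries.

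*Nampt*, the rate-limiting enzyme of NAD salvage that is also secreted, lies on chromosome 12 from 32819545 to 32853349 (plus strand). It had 137, 124 and 140 CPM in Cebpa_fl/fl and 203, 172 and 175 CPM in Cebpa_ASKO. All Cebpa_ASKO libraries were above all control libraries, by a small step. The log2 fold change was 0.45 (95% interval 0.20 to 0.71), and it was not called (edgeR quasi-likelihood F-test, Benjamini-Hochberg adjusted p = 0.0634). It was called by DESeq2 and with scaling by total counts, 2 of 16 settings, and over all of them the adjusted p ran from 0.00498 to 0.202 and the log2 fold change from 0.38 to 0.50. Outside these 16, scaling to the adipocyte markers gave a call at 1.30, or 0.42 relative to the median of all genes. In that scaling 12089 of 16069 genes were called higher, so the call says little about *Nampt*. *Nampt* had the lowest coefficient of variation of the 9 genes in both genotypes, 6.49% in Cebpa_fl/fl and 9.31% in Cebpa_ASKO.

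Among 12 other genes of NAD synthesis and use, the edgeR F-test called 1 lower (*Nnmt*) and 0 higher. At an unadjusted p below 0.05, and by DESeq2, 2 were lower (*Nadk* and *Nnmt*) and 0 higher. *Nnmt*, which methylates nicotinamide, the substrate of *Nampt*'s product, had 92.3, 146 and 86.5 CPM in Cebpa_fl/fl and 9.86, 8.20 and 11.7 CPM in Cebpa_ASKO. It fell to 9.16% of control, by 3.45 on the log2 scale (95% interval -4.05 to -2.85, edgeR quasi-likelihood F-test, Benjamini-Hochberg adjusted p = 0.000973), and was called with every library left out in turn. *Nadk*, which makes NADP, was 258 ± 9.06 CPM in Cebpa_fl/fl against 198 ± 11.6 CPM in Cebpa_ASKO (± SD over 3 libraries) without overlap. It was called by DESeq2 and not by the edgeR F-test. The median of the list was -0.030.

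*Rarres2* encodes chemerin, a chemoattractant for immune cells that also acts on fat, and lies on chromosome 6 from 48569696 to 48572789 (minus strand). It had 155, 289 and 143 CPM in Cebpa_fl/fl and 370, 304 and 203 CPM in Cebpa_ASKO. The genotypes overlapped because Cebpa_fl/fl 2 lay above Cebpa_ASKO 3. The log2 fold change was 0.58 (95% interval -0.21 to 1.37). Without Cebpa_fl/fl 2 it was 0.96, without Cebpa_fl/fl 3 it was 0.40 and without Cebpa_ASKO 1 it was 0.38, and over 16 settings, none with a call, the adjusted p ran from 0.0896 to 0.729. Outside these 16, with libraries scaled to the adipocyte markers, *Rarres2* was called higher at 1.40, or 0.52 relative to the median of all genes. So were 12089 of 16069 genes in that scaling. The 3' end of the gene lies beside another gene. It overlaps *Lrrc61* on the opposite strand (48554796 to 48570722), and whether the counting used strand is not given in the sources used here. *Lrrc61* had between 493 and 1031 estimated counts in each library, against between 6743 and 13620 for *Rarres2*.

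*Nrg4*, an epidermal growth factor family ligand that fat sends to the liver, lies on chromosome 9 from 55220222 to 55326844 (minus strand). It had 60.8, 33.7 and 70.3 CPM in Cebpa_fl/fl and 46.0, 47.9 and 24.5 CPM in Cebpa_ASKO. The ranges overlapped, with Cebpa_fl/fl 2 the lowest control library. The log2 fold change was -0.48 (95% interval -1.29 to 0.34, edgeR quasi-likelihood F-test, Benjamini-Hochberg adjusted p = 0.512), without Cebpa_fl/fl 2 it was -0.75, without Cebpa_fl/fl 3 -0.26 and without Cebpa_ASKO 3 -0.24. With libraries scaled to the adipocyte markers it was 0.34, or -0.54 relative to the median of all genes. Most of these counts were in transcripts that are not annotated as coding: of 13 transcripts 2 are protein-coding, and they held 24.7%, 15.9% and 21.4% of the counts in Cebpa_fl/fl and 16.8%, 11.3% and 19.6% in Cebpa_ASKO. The main coding transcript, Nrg4-213, was 11.8 ± 5.59 CPM in Cebpa_fl/fl against 5.95 ± 1.59 CPM in Cebpa_ASKO (± SD over 3 libraries), with overlap. The share of Nrg4-207, annotated for nonsense-mediated decay, was 15.5% ± 0.710 in Cebpa_fl/fl and 21.1% ± 3.41 in Cebpa_ASKO without overlap, and was not tested. Of the 13 transcripts, it was the 1 whose share did not overlap. The 3' end of *Nrg4* overlaps *Fbxo22* on the other strand, which had between 1367 and 1965 estimated counts in each library, against between 1091 and 3319 for *Nrg4*.

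*Apln*, the gene for apelin, a peptide that acts on blood vessels and heart, lies on chromosome X from 48025146 to 48034853 (minus strand) and was the lowest of the 9 in control tissue. It had 5.17, 3.62 and 4.92 CPM in Cebpa_fl/fl and 4.15, 4.01 and 6.20 CPM in Cebpa_ASKO, from between 131 and 276 estimated counts. The genotypes overlapped, with Cebpa_ASKO 3 above and Cebpa_fl/fl 2 below all libraries of the other genotype. The log2 fold change was 0.068 (95% interval -0.52 to 0.66, edgeR quasi-likelihood F-test, Benjamini-Hochberg adjusted p = 0.923), and its sign turned when Cebpa_fl/fl 2 or Cebpa_ASKO 3 was left out. Of 4 related genes (other neuregulins and *Apela*, which encodes another ligand of the apelin receptor), 2 passed the filter (*Nrg1* and *Nrg2*), both below 2 CPM in all libraries. With the edgeR F-test 0 were called, 0 had an unadjusted p below 0.05 and DESeq2 called 0.

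The receptors of the 9 products were measured in the same tissue as a list of 14 genes, all tested, and the median of their log2 fold changes was -0.17. With the edgeR F-test, and with DESeq2, 2 were called lower (*Adipor2* and *Cmklr1*) and 0 higher. In this list 3 were lower and 0 higher at an unadjusted p below 0.05. *Adipor2*, an adiponectin receptor and the most abundant of the list by TPM, had 647, 657 and 807 CPM in Cebpa_fl/fl and 442, 376 and 426 CPM in Cebpa_ASKO. Its log2 fold change of -0.76 (95% interval -1.10 to -0.43, edgeR quasi-likelihood F-test, Benjamini-Hochberg adjusted p = 0.0302) lost its call when any library but Cebpa_fl/fl 2 was left out, with values from -0.82 to -0.65, and was 0.088 when libraries were scaled to the adipocyte markers, or -0.79 relative to the median of all genes. *Adipor1*, the other adiponectin receptor of this type, was 139 ± 6.67 CPM in Cebpa_fl/fl against 153 ± 14.9 CPM in Cebpa_ASKO (± SD over 3 libraries) and was not called.

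*Cmklr1*, a chemerin receptor, had 84.9, 102 and 103 CPM in Cebpa_fl/fl and 22.7, 23.9 and 43.1 CPM in Cebpa_ASKO. The genotypes did not overlap, and Cebpa_ASKO 3 was the highest of its genotype. *Cmklr1* fell by 1.69 on the log2 scale, to 31.0% of control (95% interval -2.30 to -1.07, edgeR quasi-likelihood F-test, Benjamini-Hochberg adjusted p = 0.0156). The call was lost without Cebpa_ASKO 1, without Cebpa_ASKO 2 and without Cebpa_fl/fl 3, while the log2 fold change stayed between -2.06 and -1.53. Its ligand's gene *Rarres2* was not called, and the difference between receptor and ligand was not tested. The other chemerin receptors, *Gpr1* and *Ccrl2*, were between 1.78 and 5.36 CPM. *Lepr* (leptin receptor) had between 3.20 and 6.38 CPM, *Erbb4* between 1.84 and 3.58 CPM and *Erbb3* between 29.1 and 113 CPM (receptors of the *Nrg4* family), and *Aplnr* between 12.8 and 24.0 CPM, and none of them was called.

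Adiponectin is folded and assembled in the endoplasmic reticulum before it is secreted. Of 5 genes of that step (*Ero1l*, *Erp44*, *Gstk1*, *P4hb* and *Pdia3*), the edgeR F-test called 0, with 1 (*Gstk1*) lower at an unadjusted p below 0.05, which DESeq2 called. *Gstk1* was 52.7 ± 2.56 CPM in Cebpa_fl/fl against 43.4 ± 2.51 CPM in Cebpa_ASKO (± SD over 3 libraries), without overlap. The summed level of the 5 genes was 97.3% of control, with a median log2 fold change of -0.038. Of 12 paralogs of adiponectin in the C1q/TNF family, the edgeR F-test called 1 lower and 0 higher. At an unadjusted p below 0.05, and by DESeq2, 2 were lower and 0 higher, which added *C1qtnf9* (log2 fold change -0.50, without overlap). The gene called by the edgeR F-test was *C1qtnf12* (adipolin), with 62.6, 61.1 and 65.0 CPM in Cebpa_fl/fl and 40.6, 39.4 and 35.1 CPM in Cebpa_ASKO, a log2 fold change of -0.71 (95% interval -0.92 to -0.51, same F-test, adjusted p = 0.00583). With scaling to the adipocyte markers it was 0.13, or -0.75 relative to the median of all genes.

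A list of 32 other secreted factors of fat, of which 28 were tested, had a median log2 fold change of -0.033, with 5 called lower and 1 higher. With each library left out in turn, between 2 and 5 were called lower and between 1 and 2 higher. At an unadjusted p below 0.05, and by DESeq2, 6 were lower and 1 higher, which added *Igf1* (log2 fold change -0.57, without overlap). Those called lower by the edgeR F-test were *Orm1* and *Hp*, genes for acute-phase plasma proteins, *Agt*, the precursor of angiotensin, *Apoe* and *Azgp1*. *Orm1* had 142, 115 and 172 CPM in Cebpa_fl/fl and 5.13, 5.44 and 6.17 CPM in Cebpa_ASKO, and fell by 4.68 on the log2 scale (edgeR quasi-likelihood F-test, Benjamini-Hochberg adjusted p = 0.000169). *Hp*, the haptoglobin gene, had 390, 490 and 453 CPM in Cebpa_fl/fl and 68.5, 52.5 and 41.4 CPM in Cebpa_ASKO, and fell by 3.04 (same F-test, adjusted p = 0.000859). *Agt* had 10.2, 38.6 and 20.0 CPM in Cebpa_fl/fl and 1.78, 2.22 and 1.89 CPM in Cebpa_ASKO, and fell by 3.54 (same F-test, adjusted p = 0.0106), a call that was lost without Cebpa_ASKO 1 and without Cebpa_ASKO 2, with log2 fold changes from -3.90 (without Cebpa_fl/fl 1) to -2.95 (without Cebpa_fl/fl 2) in the 6 fits. *Orm1* and *Hp* were called with every library left out. *Apoe* (-0.81 on the log2 scale) kept its call only without Cebpa_fl/fl 2, with values from -0.88 to -0.70, and was 0.043 with scaling to the adipocyte markers, or -0.83 relative to the median of all genes. *Azgp1* (-3.14), below 2 CPM in all libraries, kept its call only without Cebpa_fl/fl 2 and without Cebpa_ASKO 3, with values from -4.24 (without Cebpa_ASKO 3) to -2.79 (without Cebpa_ASKO 1).

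Several of these proteins are also made by the liver, and 4 hepatocyte markers were therefore read beside them. They summed to 25.7, 33.9 and 35.7 CPM in Cebpa_fl/fl and 6.02, 5.85 and 1.50 CPM in Cebpa_ASKO. The most abundant was *Alb*, with 24.6, 32.5 and 31.5 CPM against 5.48, 5.41 and 0.988 CPM, which was called lower (log2 fold change -2.91, edgeR quasi-likelihood F-test, Benjamini-Hochberg adjusted p = 0.0374) and lost that call when any library but Cebpa_ASKO 3 was left out, with values from -3.24 to -2.45. *Serpina3k* had 0.646, 0.996 and 4.11 CPM in Cebpa_fl/fl and no counts in Cebpa_ASKO, and *Ahsg* and *Apoa2* stayed below 1 CPM in all libraries. The gene called higher in the list of secreted factors was *Fndc5*, the irisin precursor expressed in muscle, with 6.04, 6.29 and 4.13 CPM in Cebpa_fl/fl and 15.0, 14.8 and 14.6 CPM in Cebpa_ASKO (log2 fold change 1.43, same F-test, adjusted p = 0.00750). The 5 skeletal muscle markers were 5.66-fold higher in sum, and their part in *Fndc5* was not tested. *Serpina12*, *Fgf21*, *Itln1* and *Il6* did not pass the filter on low counts.

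Transcription factors known to act on adipokine genes formed a list of 10, with 4 called lower, 1 called higher and a median log2 fold change of 0.015. Besides *Cebpa*, those called lower were *Nr1h3* (LXRα), *Pparg* and its partner *Rxra*. *Nr1h3* had 73.3, 79.7 and 79.8 CPM in Cebpa_fl/fl and 32.2, 31.8 and 30.1 CPM in Cebpa_ASKO, and fell by 1.31 on the log2 scale (edgeR quasi-likelihood F-test, Benjamini-Hochberg adjusted p = 0.000724). *Pparg* (-0.78) lost its call without Cebpa_ASKO 1, with log2 fold changes from -0.85 to -0.70 in the 6 fits. *Rxra* (-0.54) kept its call only without Cebpa_fl/fl 1 and without Cebpa_fl/fl 2, with log2 fold changes from -0.62 to -0.50, and with scaling to the adipocyte markers *Pparg*, itself among those markers, and *Rxra* were 0.067 and 0.32, or -0.81 and -0.56 relative to the median of all genes.

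Within the C/EBP family the members went different ways. *Cebpg* had 71.7, 83.4 and 75.5 CPM in Cebpa_fl/fl and 225, 199 and 166 CPM in Cebpa_ASKO, and rose by 1.36 on the log2 scale (edgeR quasi-likelihood F-test, Benjamini-Hochberg adjusted p = 0.00316). *Cebpd* had 28.1, 31.2 and 24.4 CPM in Cebpa_fl/fl and 55.9, 54.8 and 35.9 CPM in Cebpa_ASKO, without overlap, and was not called (log2 fold change 0.81, same F-test, adjusted p = 0.0650), although DESeq2 called it. *Cebpb* had 153, 110 and 102 CPM in Cebpa_fl/fl and 191, 174 and 136 CPM in Cebpa_ASKO and overlapped. Per length, the level of *Cebpa* went from 228 to 20.4 TPM, that of *Cebpb* from 108 to 155 TPM and that of *Cebpg* from 22.0 to 64.1 TPM.

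The genes around *Adipoq* were read because its promoter drives Cre. Of 23 genes annotated within 200 kb, 13 had transcripts in the files and 4 passed the filter. With the edgeR F-test 0 were called, with 1 (*Rfc4*) higher at an unadjusted p below 0.05, which DESeq2 called, and a median log2 fold change of 0.082. *Rfc4* was 6.05 ± 0.880 CPM in Cebpa_fl/fl against 9.08 ± 0.626 CPM in Cebpa_ASKO (± SD over 3 libraries). *Eif4a2*, the most abundant neighbor, was 482 ± 50.1 and 556 ± 16.4 CPM. These 2 of the 4 were higher without overlap, as were 12.9% of all genes tested.

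To set the 4 falls against the adipocyte markers as a sum, each library was also scaled to the summed counts of the 13 markers. *Fabp4* (8365 CPM) and *Lpl* (4281 CPM) made up much of the mean sum in Cebpa_fl/fl (24770 CPM). Single markers ran from 17.8% (*Cidec*) to 176% (*Gpd1*) of control, so the values are not an excess over adipocyte genes in general. This scaling moved the median log2 fold change of all genes from 0.025 to 0.88. With it 12089 genes were called higher and 304 lower, against 223 and 617 with TMM. In that scaling the log2 fold changes were -2.08 for *Adipoq*, -8.95 for *Retn*, -2.34 for *Cfd* and -2.17 for *Rbp4*, and all 4 were called. Relative to the median of all genes, they were -2.96, -9.82, -3.22 and -3.04. The scaling shifts all genes alike, so values relative to that median return close to those with TMM by construction. *Lep* and *Nrg4* were 0.38 and 0.34 there and were not called, and relative to the median of all genes they were -0.50 and -0.54. *Rarres2* (1.40), *Nampt* (1.30) and *Apln* (0.94) were called higher in that scaling, at 0.52, 0.42 and 0.067 relative to the median.

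**Figure D4:**
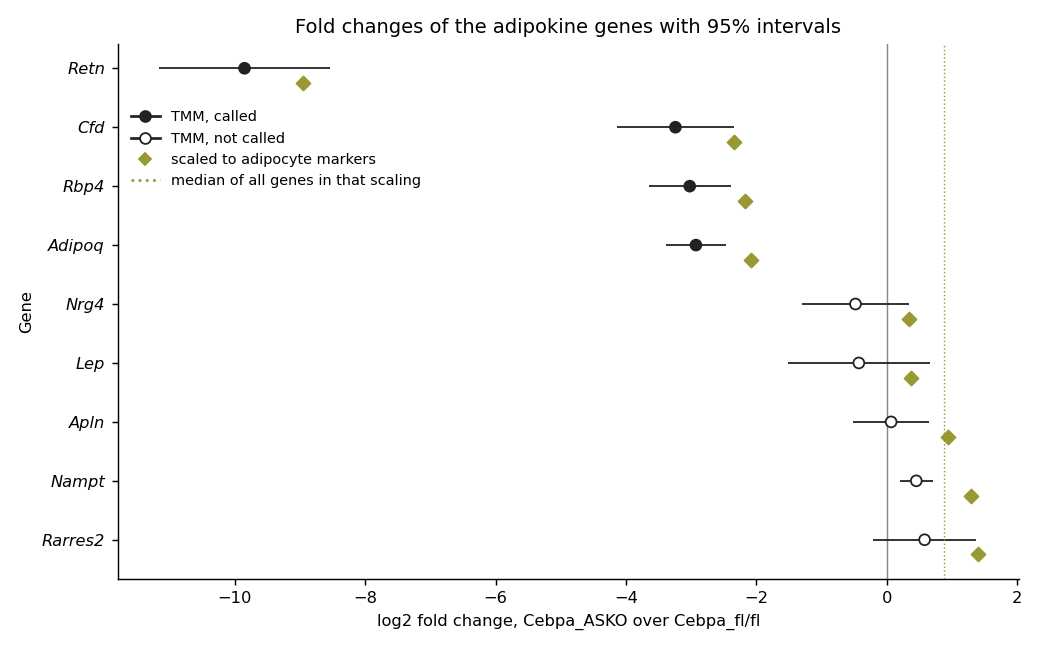
Log2 fold changes (Cebpa_ASKO over Cebpa_fl/fl) of the 9 adipokine genes, with circles and 95% intervals for TMM scaling (filled where called) and diamonds for scaling to the adipocyte markers. The 4 genes called lower lie at -2.93 or below with TMM, and the dotted line marks the median of all genes, 0.88, in the marker scaling.

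For each adipokine gene the genes with the most similar profile were sought among 12664 other named genes whose average log2 CPM was 1 or more, by the root mean square difference of log2 CPM over the 6 libraries after centring on the control mean. Closest to *Adipoq* were *Cth* (0.19) and *Cd1d1* (0.20), and closest to *Cfd* were *St6galnac5* (0.13) and *Car5b* (0.27). For *Rbp4* they were *Cdo1* (0.20), a cysteine-degrading enzyme with 1447 and 205 CPM in Cebpa_fl/fl and Cebpa_ASKO, and *Mgst2* (0.21). *Retn* had no close neighbor, the nearest being *Mup22* (0.60) and *Mup11* (0.62), major urinary protein genes whose reads are divided among near-identical copies. *Nampt* was closest to *Ndrg3* (0.044) and *Decr2* (0.051), *Rarres2* to *Aif1l* (0.087) and *Kera* (0.14), *Lep* to *Col8a1* (0.21) and *Cited1* (0.28), *Nrg4* to *Rims4* (0.18) and *Ccdc125* (0.21), and *Apln* to *Ctu2* (0.10) and *Shpk* (0.10).

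Because 4 of the genes were lower together in tissue with little *Cebpa*, their promoters were searched for the core of the C/EBP motif. RefSeq windows of 300 bases (250 before to 50 after the start, GRCm38.p6) matched 8 of the 9 genes, in 9 windows since *Rbp4* has 2. *Rarres2* had no entry. The letters TTNNGNAA and their reverse complement TTNCNNAA, which can overlap, were searched on both strands. They were found in 13365 of 32851 windows of all genes, or 40.7%, and in 5 of the 9 windows, those of *Adipoq*, *Lep*, *Nrg4* and *Rbp4* (both). Of the genes called lower, *Adipoq* and *Rbp4* thus held a match and *Retn* and *Cfd* did not, while *Lep* and *Nrg4*, which were not called, did. A match is a description of letters in this window.

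The windows of the 4 genes called lower are shown with that of *Lep*, as a gene with a match and without a call, with matches in capitals. They lie at chr16:23146286-23146585 (*Adipoq*, plus strand), chr8:3655520-3655819 (*Retn*, plus strand), chr10:79890603-79890902 (*Cfd*, plus strand), chr19:38125272-38125571 and chr19:38124762-38125061 (*Rbp4*, minus strand, windows 1 and 2) and chr6:29059971-29060270 (*Lep*, plus strand), each 5′ to 3′ along the gene. The matches begin 81 bases before the start in *Adipoq* and 55 bases before it in *Lep*, where the match reads the same on both strands. In *Rbp4* window 1 has a match 9 bases before its start and window 2 has matches 128 and 59 bases before its start. Neither start is the first base of an annotated *Rbp4* transcript given here.
Adipoq: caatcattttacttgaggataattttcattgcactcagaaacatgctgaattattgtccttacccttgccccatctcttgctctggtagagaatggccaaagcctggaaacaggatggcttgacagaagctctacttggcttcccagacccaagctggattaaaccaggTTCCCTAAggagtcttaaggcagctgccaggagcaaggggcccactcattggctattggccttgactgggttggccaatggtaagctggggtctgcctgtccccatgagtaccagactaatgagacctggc
Retn: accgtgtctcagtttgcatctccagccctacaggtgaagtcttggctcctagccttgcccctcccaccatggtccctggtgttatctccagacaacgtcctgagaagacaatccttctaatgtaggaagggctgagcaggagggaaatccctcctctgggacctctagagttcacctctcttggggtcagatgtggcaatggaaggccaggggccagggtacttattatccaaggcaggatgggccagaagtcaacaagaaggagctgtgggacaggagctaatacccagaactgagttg
Cfd: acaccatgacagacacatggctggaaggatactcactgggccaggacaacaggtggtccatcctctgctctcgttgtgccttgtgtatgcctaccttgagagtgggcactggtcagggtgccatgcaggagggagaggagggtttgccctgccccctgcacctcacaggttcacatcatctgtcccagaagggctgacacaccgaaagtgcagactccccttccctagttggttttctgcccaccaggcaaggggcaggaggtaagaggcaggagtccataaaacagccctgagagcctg
Rbp4 window 1: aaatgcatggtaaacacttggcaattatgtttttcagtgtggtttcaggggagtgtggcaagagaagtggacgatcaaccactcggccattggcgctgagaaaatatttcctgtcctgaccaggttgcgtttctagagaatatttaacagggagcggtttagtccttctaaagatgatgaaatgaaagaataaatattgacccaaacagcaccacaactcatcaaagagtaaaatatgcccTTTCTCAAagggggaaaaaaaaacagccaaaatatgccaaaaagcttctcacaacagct
Rbp4 window 2: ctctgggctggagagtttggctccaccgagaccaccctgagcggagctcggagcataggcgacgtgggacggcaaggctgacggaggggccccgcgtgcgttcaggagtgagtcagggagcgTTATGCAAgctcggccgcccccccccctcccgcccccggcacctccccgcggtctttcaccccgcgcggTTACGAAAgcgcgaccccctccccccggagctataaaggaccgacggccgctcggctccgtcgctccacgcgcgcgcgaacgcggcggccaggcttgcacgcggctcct
Lep: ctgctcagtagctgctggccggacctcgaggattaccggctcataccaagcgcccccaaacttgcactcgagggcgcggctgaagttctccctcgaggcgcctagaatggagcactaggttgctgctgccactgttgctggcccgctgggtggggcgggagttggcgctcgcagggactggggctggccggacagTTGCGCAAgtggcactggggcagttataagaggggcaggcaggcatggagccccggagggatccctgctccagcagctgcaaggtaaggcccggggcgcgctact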

How the data were processed

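Poly-A RNA-seq of iWAT was read from the tables that the authors deposited for 3 Cebpa_fl/fl and 3 Cebpa_ASKO mice. The authors deposited estimated counts (not normalized), effective length and TPM per transcript from kallisto 0.44.0, and TPM per gene symbol. The submitters' processing notes list GRCm38.p6 and GRCh38.p12. Estimated counts were summed per symbol with GENCODE M21 (GRCm38), which matched 116816 of 118489 transcripts, and rounded to whole numbers. The sum covers all transcripts of the 9 genes.

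Genes were tested with edgeR 4.0.16 (quasi-likelihood, TMM, default filter) in R 4.3.3, and called at a Benjamini-Hochberg adjusted p below 0.05. Standard errors and 95% intervals follow from the fold change and its F statistic. DESeq2 1.42.0, limma 3.58.1 on TPM, other scalings and filters, a block and each library left out were alternatives. The procedure was tested on simulated data, and the outcome is not given here. Tables and promoters were read with Python 3.11.15 and pandas 2.3.3.

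Named are the 9 genes, *Cebpa*, genes of fixed lists that were called, abundant, or receptors or partners of the 9, and the 2 nearest profiles of each. Members and lists were chosen with earlier results of these data known.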

Additional observations from a re-analysis of the deposited data

How the results depend on the processing

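The 4 adipokine genes called lower were called in all 16 settings, over which the log2 fold changes ran from -3.01 to -2.79 for *Adipoq*, -10.65 to -9.33 for *Retn*, -3.64 to -3.06 for *Cfd* and -3.26 to -2.81 for *Rbp4*. Leaving out each library in turn gave 4 called lower and 0 called higher each time. With DESeq2, and with scaling by total counts, 1 adipokine gene was called higher (*Nampt*), against 0. Over all genes 840 were called, against 1813 with DESeq2, 359 with limma on TPM without a filter, and between 311 and 922 with each library left out. With the replicate number as a replicate block 370 genes were called, and the 4 adipokine genes were among them. Deviations of libraries with the same number had correlations of 0.066, 0.028 and -0.20, and those with different numbers from -0.18 to 0.15. These values cannot show whether the numbers pair the mice, so the block fit stands as an alternative.

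Scaling to the adipocyte markers moved the median of all genes to 0.88 and with it reversed *Lep* (0.38) and *Nrg4* (0.34), which relative to that median were -0.50 and -0.54. *Apln* reversed without Cebpa_fl/fl 2 (-0.084) and without Cebpa_ASKO 3 (-0.18), and ran from -0.18 to 0.17 with each library left out. The called genes of the lists were put through the same settings after their calls were seen, and the marker scaling reversed *Adipor2* (0.088), *Apoe* (0.043), *C1qtnf12* (0.13), *Pparg* (0.067) and *Rxra* (0.32). That scaling shifts all genes alike, so values relative to the median return close to those with TMM by construction. Here they were -0.79, -0.83, -0.75, -0.81 and -0.56, and they do not bear on levels relative to the markers. With the replicate block *Adipor2*, *C3*, *Apoe*, *Azgp1*, *C1qtnf12*, *Pparg*, *Rxra*, *Plin1*, *Plin4*, *Lpl* and *Alb* lost their calls, while their log2 fold changes moved little (*Adipor2* -0.76, *C3* -1.14, *C1qtnf12* -0.72, *Pparg* -0.78).

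With 3 libraries per genotype an adjusted p above 0.05 does not show that levels were equal. For *Retn* the level in Cebpa_ASKO rests on between 23 and 95 estimated counts per library, and *Apln* on few counts in all. The other adipokine genes had at least 842 counts in each library, so the spread between mice, not depth, sets their precision.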
